A study of Mus musculus with 9 samples.

Results

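Enteroendocrine cells are hormone-secreting cells scattered through the gut epithelium. They arise from Atoh1-expressing secretory progenitors through the transcription factors Neurog3 and then Neurod1, and they store peptide hormones in dense-core granules whose matrix is built by granins. Granins and several of the same peptides, among them somatostatin and cholecystokinin, are also made by neurons. Neurog3 (specifier of the lineage), Neurod1 (its downstream factor), the granins Chga and Chgb, and the hormone genes Gcg, Pyy, Sct, Cck and Sst were followed here. The members were all probe sets that the platform annotation assigned to 1 of these 9 symbols alone. This gave 11 of the 45037 non-control probe sets, with a pair each for Neurog3 and Neurod1, and no hormone gene was without one.

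The 9 arrays held hindgut RNA of mouse embryos in 3 groups of 3. Ednrb null embryos were homozygous for a lacZ allele of the endothelin receptor B gene, Ednrb NCC null embryos (titled Ednrb-FLEX) were labelled as mutant for Ednrb in NCC cells, and the third group was wild type. The arrays were Ednrb null 29, 37 and 41, Ednrb NCC null 2, 5 and 6, and wild type 1B, 1C and 1D. The labels give embryonic day 14, the series text 14.5, and the tissue was the terminal colon. The deletion driver of the NCC line, the strain background and whether each array was a single embryo or a pool were not given in the sources used here. The p-values therefore reflect the spread among these samples alone, which may be technical.

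Ednrb itself, by its brightest probe set, lay at a log2 intensity of 8.77 to 9.40 in Ednrb null hindgut, 11.04 to 11.32 in Ednrb NCC null and 10.95 to 11.08 in wild type. In Ednrb NCC null tissue the level was not under that of wild type, so it does not check that label. Across all probe sets, Pearson r was 0.993 to 0.997 for pairs of arrays within a group and 0.988 to 0.993 for other pairs. The gut epithelium markers Epcam and Krt8 were bright in all 9 arrays, at 12.40 to 13.05 and 12.77 to 13.61. The log2 ratio of the 3′ to the 5′ Actb control, a measure of RNA integrity, was 0.80 to 0.90 in Ednrb null hindgut, 1.03 to 1.40 in Ednrb NCC null and 1.08 to 1.32 in wild type, so the Ednrb null arrays stood apart. The mean level of the Y-linked genes was 7.82 to 9.38 in Ednrb null arrays, 3.74 to 8.80 in Ednrb NCC null arrays and 7.65 to 9.38 in wild type arrays.

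Stretches of 250 bases before the transcription start are shown for the 4 members that the levels turn on: Neurog3, both granins, which varied together over the arrays, and Sst, which went the other way. They are RefSeq sequences of build GRCm38.p6, read 5′ to 3′ on the gene's strand, and all 9 members were matched by symbol, with 10 windows because Pyy has a pair of starts. Capitals mark the E-box CAGCTG, a kind of site bound by bHLH factors such as those of the Neurog and Neurod families, in Neurog3, and the cAMP response element half-site TGACG, read on both strands, in the other 3.
Neurog3, chr10:62132840-62133089, plus strand: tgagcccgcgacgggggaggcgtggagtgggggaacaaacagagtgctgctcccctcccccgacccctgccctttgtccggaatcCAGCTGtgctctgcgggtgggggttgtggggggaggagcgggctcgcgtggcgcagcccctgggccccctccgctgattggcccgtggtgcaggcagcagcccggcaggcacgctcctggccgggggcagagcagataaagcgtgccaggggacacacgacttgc
Chga, chr12:102554691-102554940, plus strand: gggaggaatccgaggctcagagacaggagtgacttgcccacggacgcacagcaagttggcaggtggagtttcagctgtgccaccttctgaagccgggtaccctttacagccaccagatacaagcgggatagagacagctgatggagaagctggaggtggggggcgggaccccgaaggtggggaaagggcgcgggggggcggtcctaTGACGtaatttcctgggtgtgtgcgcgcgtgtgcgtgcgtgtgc
Chgb, chr2:132781392-132781641, plus strand: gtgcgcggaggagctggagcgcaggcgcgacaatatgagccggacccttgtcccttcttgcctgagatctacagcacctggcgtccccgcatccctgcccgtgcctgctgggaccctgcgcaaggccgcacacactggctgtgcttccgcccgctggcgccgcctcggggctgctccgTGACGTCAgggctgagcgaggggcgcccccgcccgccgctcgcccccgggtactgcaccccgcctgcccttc
Sst, chr16:23890845-23891094, minus strand: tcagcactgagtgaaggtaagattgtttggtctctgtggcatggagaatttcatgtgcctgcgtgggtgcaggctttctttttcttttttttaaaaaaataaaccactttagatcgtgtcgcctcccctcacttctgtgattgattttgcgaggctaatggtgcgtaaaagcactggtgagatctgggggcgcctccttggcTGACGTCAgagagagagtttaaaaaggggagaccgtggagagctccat

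The full palindromic element TGACGTCA, which contains the half-site on both strands, was found in Chgb (first base at position -72 from the start) and in Sst (position -48), that is in 2 of the 9 member genes. Of all 32851 promoter windows of the same length, 1.55% held it. The half-site TGACG was found in Chga (position -44), Chgb, Cck and Sst, 4 of 9 genes, against 17.8% of all windows. The E-box CAGATG was found in Gcg, Sct and Cck and the E-box CAGCTG in Chga, Sct and Neurog3, against 14.4% and 13.0% of all windows. These are matches of letters only.

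Most members were dim. Values are log2 RMA intensity throughout. With no detection calls in the deposited values, the background level was set at 6.05, the 95th percentile over 83 probe sets of olfactory, vomeronasal and bitter taste receptor genes. Some such receptors are known from gut epithelium, so the level is a working one. Without the 3 bitter taste receptor probe sets, a choice made after seeing the data, it was 6.08 and the members fell into the same classes by count. Gcg, Cck, both Neurod1 probe sets and Neurog3 (NM_009719) averaged under that level in all 3 groups, 5 of 11 probe sets. Neurog3 (AK008017), Chgb and Pyy averaged under it in Ednrb null only. Chga, Sct and Sst were above it in all 9 arrays. The brightest sensory receptor probe set averaged 6.97, so even Chga, with a mean of 6.76 over the 9 arrays, lay within the range of those receptors. A dim value is compressed toward background, so small differences there say little.

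**Figure D1:**
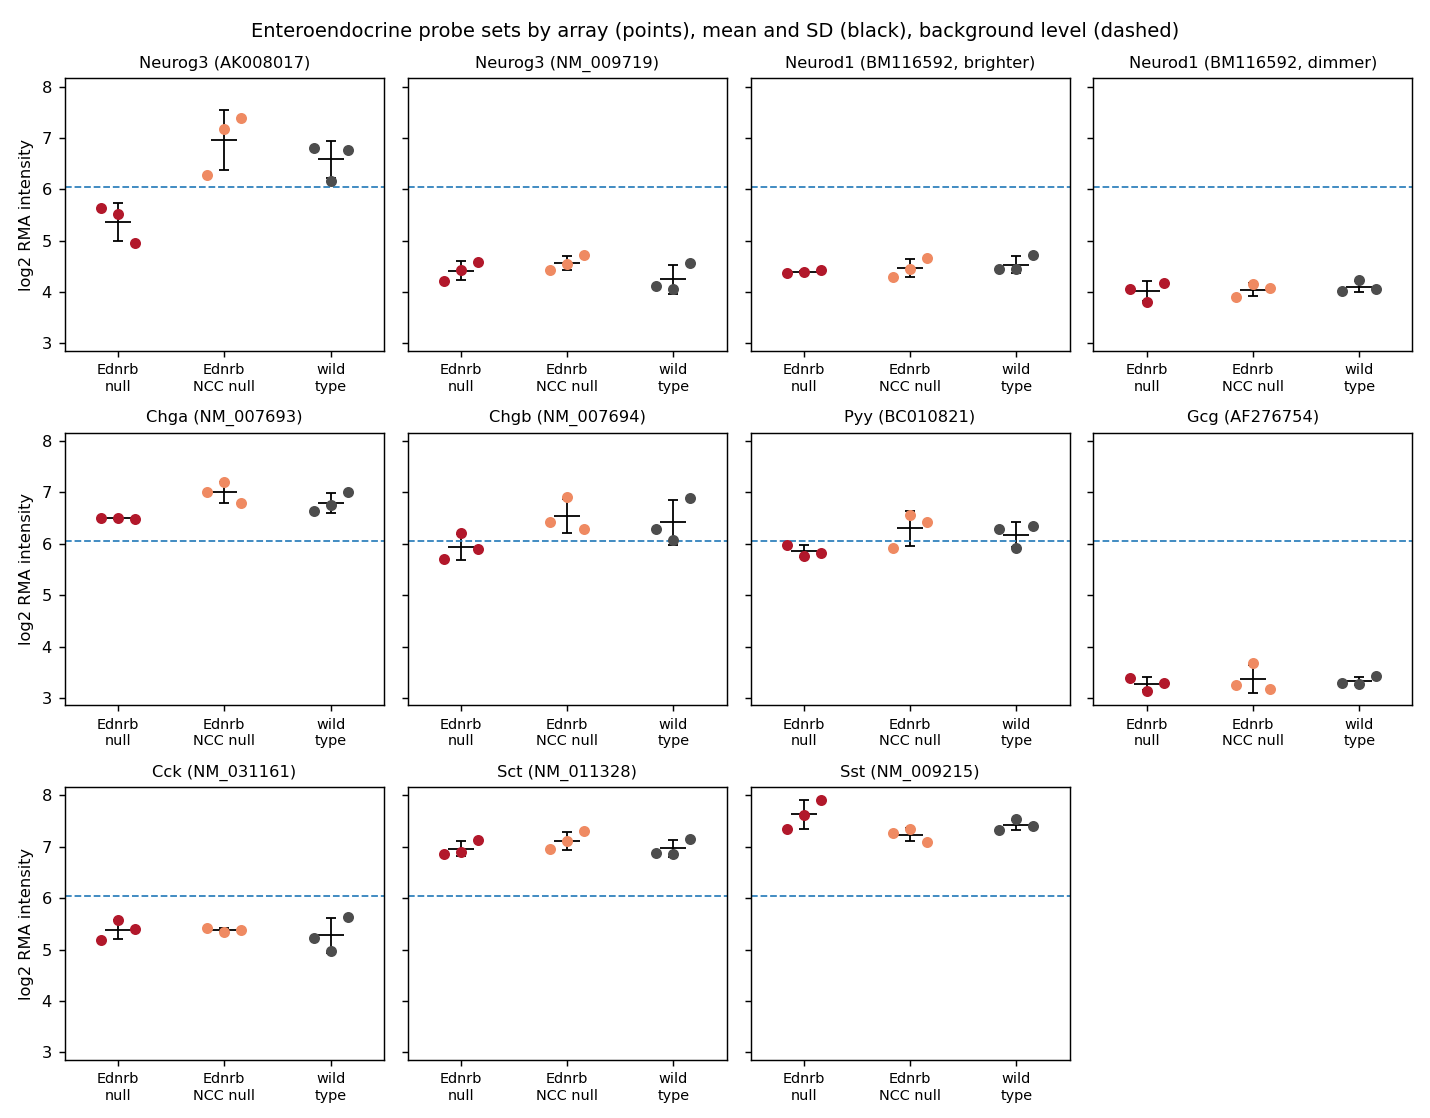
Log2 RMA intensity of the 11 member probe sets in each array (points; from left to right Ednrb null, then Ednrb NCC null, then wild type), with the mean and SD of each group of 3 (black) and the background level of 6.05 (dashed). Neurog3 (AK008017) was under the background level in the 3 Ednrb null arrays and over it in the other 6, while its other probe set lay under it in all 9.

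In Ednrb null against wild type, a single member passed the threshold, Neurog3 by one of its probe sets. That probe set was lower in Ednrb null also than in Ednrb NCC null, as was Chga, and no member passed between Ednrb NCC null and wild type. In numbers, 1 of 11 probe sets was called in Ednrb null relative to wild type, where 5.03% of all probe sets were called (2.51% higher and 2.52% lower). Between the mutants 2 of 11 were called, both lower in Ednrb null, where 4.41% of all were called (1.84% higher and 2.57% lower). In Ednrb NCC null relative to wild type 0 of 11 were called, where 3.58% of all were called (2.06% higher and 1.51% lower). The limma test, with Benjamini-Hochberg adjustment over all 45037 probe sets, was used for every call at an adjusted p under 0.05. At an unadjusted p under 0.05 these counts were 2, 5 and 0 of 11, where 17.3%, 17.3% and 17.0% of all probe sets passed. The median difference over the members was -0.09 (Ednrb null relative to wild type), 0.12 (Ednrb NCC null relative to wild type) and -0.15 (Ednrb null relative to Ednrb NCC null), beside 0.03, 0.01 and 0.02 over all probe sets. In whole tissue, fewer cells of a type and less RNA per cell cannot be told apart.

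Neurog3, the gene that commits progenitors to the enteroendocrine fate, was read by 2 probe sets that differed. The probe set annotated through the clone accession AK008017 had a log2 intensity of 5.64, 5.52 and 4.95 in Ednrb null 29, 37 and 41, of 6.29, 7.18 and 7.39 in Ednrb NCC null 2, 5 and 6, and of 6.81, 6.17 and 6.77 in wild type 1B, 1C and 1D. The 3 Ednrb null arrays were the lowest of the 9, and the other groups overlapped. The mean was 5.37 ± 0.37 in Ednrb null, against 6.58 ± 0.36 in wild type (SD, n = 3 each), a difference of -1.21 (SE 0.28, limma adjusted p = 0.0328). Against Ednrb NCC null, with a mean of 6.95 ± 0.59, Ednrb null was lower by a difference of -1.58 (SE 0.28, limma adjusted p = 0.0104). Since Ednrb null lay under the background level, the folds are bounds of at least 1.45-fold lower than wild type and at least 1.87-fold lower than Ednrb NCC null. Between Ednrb NCC null and wild type the difference was 0.37 (95% interval -0.26 to 0.99, limma adjusted p = 0.589).

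The other Neurog3 probe set, annotated through the RefSeq transcript NM_009719, showed nothing of this. It had 4.22, 4.43 and 4.58 in Ednrb null hindgut, 4.43, 4.54 and 4.72 in Ednrb NCC null and 4.13, 4.05 and 4.57 in wild type, with all groups overlapping and all arrays far under the background level. Its difference was 0.16 for Ednrb null against wild type (95% interval -0.16 to 0.48, limma adjusted p = 0.637) and -0.15 against Ednrb NCC null (interval -0.47 to 0.17, limma adjusted p = 0.679). The fall is thus a measurement of the AK008017 probe set, whose assignment to Neurog3 rests on the platform annotation and could not be checked against sequence here.

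The Neurog3 call against wild type was not firm. It was lost without Ednrb null 29, 37 or 41, without Ednrb NCC null 5 and without wild type 1B or 1D (adjusted p = 0.0552, 0.0764, 0.112, 0.0521, 0.135 and 0.0985), though the difference stayed between -1.42 and -1.0 with any array left out. In a fit that adds the Actb ratio the difference was -1.56 and the adjusted p 0.179, the highest of its 19 alternatives, which ranged down to 0.00942. Against Ednrb NCC null the call was kept in 17 of 19 alternatives (adjusted p from 0.00292 to 0.110) and lost without Ednrb NCC null 5 (difference -1.46, adjusted p = 0.0557) and in the fit that adds the Actb ratio (difference -1.96, adjusted p = 0.110).

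Neurod1, which acts after Neurog3 and is kept on in mature enteroendocrine cells, was dim by both probe sets, which share the accession BM116592, and no group stood apart from both others. The brighter probe set had 4.37, 4.39 and 4.42 in Ednrb null hindgut, 4.29, 4.45 and 4.65 in Ednrb NCC null and 4.44, 4.45 and 4.72 in wild type. The Ednrb null arrays were all under the wild type ones, but by a mean difference of -0.14 (95% interval -0.39 to 0.10, limma adjusted p = 0.576). The dimmer one lay between 3.80 and 4.23 in the 9 arrays. At these levels no difference in Neurod1 was detectable.

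Of the granins, which condense hormones in the granule, Chga was the member with the tightest group. It had 6.51, 6.50 and 6.48 in Ednrb null hindgut, 7.01, 7.20 and 6.79 in Ednrb NCC null and 6.63, 6.76 and 7.0 in wild type. All 3 Ednrb null arrays lay under the other 6, and Ednrb NCC null and wild type overlapped. Ednrb null was lower than Ednrb NCC null by a difference of -0.51 (SE 0.12, limma adjusted p = 0.0412), a 1.42-fold change. Against wild type the difference was -0.30 (95% interval -0.57 to -0.04) and did not pass (limma adjusted p = 0.219). The call between the mutants held in 10 of 19 alternatives and was lost without any 1 of Ednrb null 29, 37 and 41, Ednrb NCC null 2 and 5 and wild type 1C, with an offset on the intensity, and in the fits that add the Actb ratio or the Y-linked level, with adjusted p from 0.0216 to 0.172 over the alternatives and a difference from -0.70 to -0.39.

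Chgb followed the same order at a wider spread. It had 5.71, 6.20 and 5.90 in Ednrb null hindgut, 6.42, 6.92 and 6.28 in Ednrb NCC null and 6.28, 6.07 and 6.90 in wild type. The mutants did not overlap, while Ednrb null 37 lay above wild type 1C. The difference was -0.60 between Ednrb null and Ednrb NCC null (95% interval -1.09 to -0.12, limma adjusted p = 0.179) and -0.48 against wild type (interval -0.97 to 0.01, limma adjusted p = 0.297), and neither passed. Over the 9 arrays, which share 3 groups, Chga and Chgb correlated at Pearson r = 0.87.

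**Figure D2:**
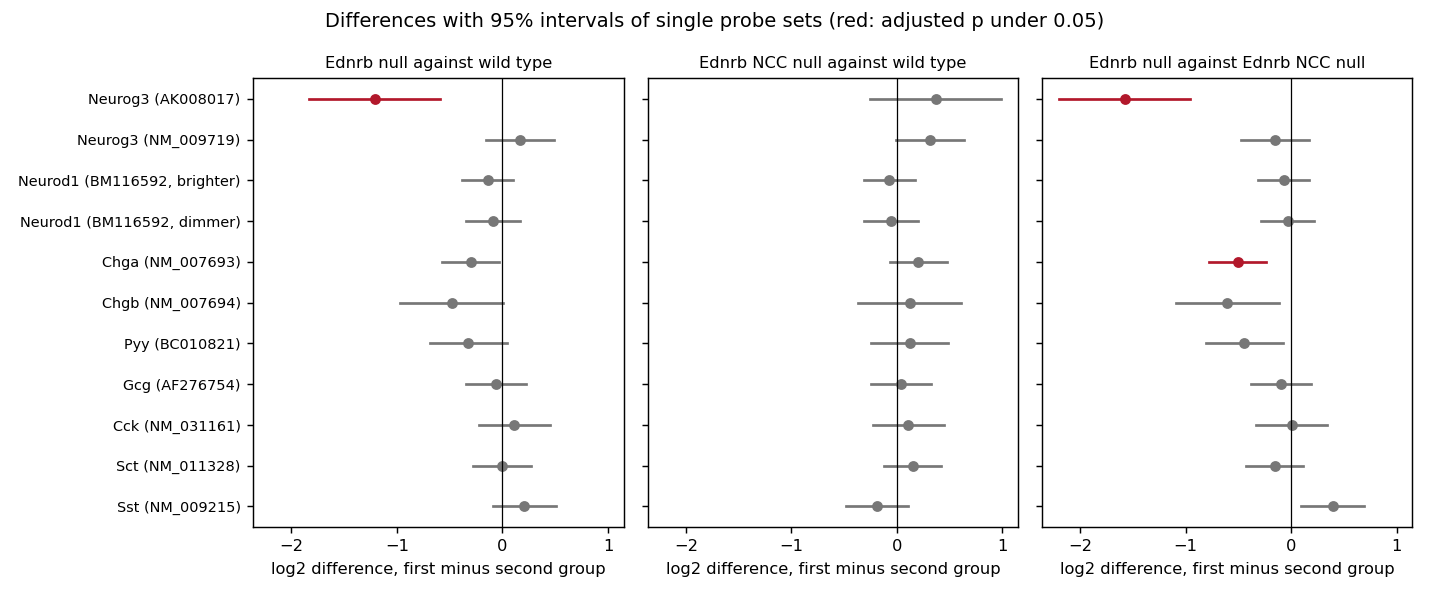
Log2 difference (first minus second group) of each member probe set with its 95% interval for single probe sets, in the 3 comparisons, with an adjusted p under 0.05 in red. Neurog3 (AK008017) at -1.21 and -1.58 and Chga at -0.51 were called, and no member was called for Ednrb NCC null against wild type.

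Among the hormones, Pyy, the colonic peptide of L cells that slows transit and appetite, sat at the background level. It had 5.99, 5.76 and 5.82 in Ednrb null hindgut, 5.92, 6.56 and 6.42 in Ednrb NCC null and 6.28, 5.91 and 6.35 in wild type, with overlap between all groups. The difference between the mutants was -0.44 (95% interval -0.81 to -0.08, limma adjusted p = 0.187), and it passed without Ednrb NCC null 2 alone (difference -0.64, adjusted p = 0.0371, the only 1 of its 18 alternatives to pass). Gcg, the proglucagon gene from which L cells make GLP-1 and GLP-2, lay at 3.14 to 3.67 in all 9 arrays, among the dimmest 2.79% of probe sets. No Gcg signal above background was detectable in any group.

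Sst, the inhibitory peptide of D cells and of some enteric neurons, was the member with an opposite order. It had 7.35, 7.63 and 7.92 in Ednrb null hindgut, 7.28, 7.34 and 7.10 in Ednrb NCC null and 7.33, 7.54 and 7.41 in wild type. The lowest Ednrb null array was just above the highest Ednrb NCC null array. The difference between the mutants was 0.39 (95% interval 0.10 to 0.69) and did not pass (limma adjusted p = 0.149), nor did 0.21 against wild type (limma adjusted p = 0.491). Neurog3 (AK008017) correlated with Sst at r = -0.83 and with Pyy at 0.90 over the 9 arrays. The other Neurog3 probe set, under background throughout, gave -0.06 and 0.33.

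Sct, the bicarbonate-releasing hormone secretin, was above background and level across the groups. It had 6.86, 6.90 and 7.14 in Ednrb null hindgut, 6.95, 7.11 and 7.30 in Ednrb NCC null and 6.88, 6.87 and 7.16 in wild type. The difference was -0.00 for Ednrb null against wild type, with an interval of -0.27 to 0.27, and 0.15 for Ednrb NCC null against wild type, with an interval of -0.12 to 0.42. Cck, cholecystokinin of I cells and neurons, lay at 4.98 to 5.64, under background in every array, with differences of 0.11, 0.11 and 0.01 in the 3 comparisons. Over both genes and the 3 comparisons the 95% intervals ran from -0.43 to 0.45.

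The arrays of Ednrb null and wild type did not overlap for 3 of 11 members, Neurog3 (AK008017), Chga and the brighter Neurod1 probe set, all lower, where 20.7% of all probe sets did not overlap. Between the mutants 4 of 11 did not overlap, against 21.3% of all: Neurog3 (AK008017), Chga and Chgb were lower and Sst higher in Ednrb null. For Ednrb NCC null and wild type the count was 0 of 11, against 19.3%.

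The members share other measures only in part. By Pearson r over the 9 arrays, and among 13256 genes whose brightest probe set averaged above background, the patterns most like Chga were those of Prss16 (0.98), Gpat3, Igfbp6, C1qtnf2 and Cxcl13 (0.91). Those most like Sct were Khk (0.94), Bad, Pax4, Anxa9 and Lpcat4 (0.92), and those most like Sst were Ulk4 (0.94), 4930563E22Rik, Wdr86, Zfp108 and Bean1 (0.90). For Neurog3 (AK008017), added after its values were seen, they were Gadd45b (0.97), Syk, Hip1r, 9130208D14Rik and Plekhb2 (0.95). No other member was among these genes, and with 9 arrays in 3 groups such values are a description.

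The genes around Neurog3 in the enteroendocrine programme were read from a list of 22 transcription factors, 18 of them measured, each by the brightest probe set naming it alone. Relative to wild type, 3 fell and 0 rose in Ednrb null, where 4.79% of all genes were called (2.51% higher, 2.29% lower), and 1 fell in Ednrb NCC null, where 3.90% were (2.92% higher, 0.984% lower). Between the mutants 3 were lower in Ednrb null, where 5.29% were called (1.56% higher, 3.73% lower). The list median was -0.07, -0.02 and -0.05, beside 0.04, 0.02 and 0.01 over all genes, and 9 of the 18 averaged under background. Atoh1, the bHLH factor that starts the secretory lineage of goblet and enteroendocrine cells, had 7.31, 7.53 and 7.55 in Ednrb null hindgut, 8.52, 9.18 and 9.25 in Ednrb NCC null and 8.74, 7.81 and 8.89 in wild type. Every Ednrb null array was under every other array. The difference was -1.52 between the mutants (SE 0.26, limma adjusted p = 0.00882). It was -1.65 in the Actb fit (adjusted p = 0.168), the 1 loss of this call in 19 alternatives. Against wild type the difference of -1.02 did not pass (limma adjusted p = 0.0525).

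Gfi1, a zinc finger repressor downstream of Atoh1 that favours goblet and Paneth over enteroendocrine fate, had 4.68, 5.10 and 4.87 in Ednrb null hindgut, 6.06, 6.92 and 6.62 in Ednrb NCC null and 6.23, 5.69 and 6.05 in wild type. It was lower in Ednrb null than in Ednrb NCC null, by at least 1.40-fold since Ednrb null lay under background (fitted difference -1.65, SE 0.21, limma adjusted p = 0.00178). The call against wild type (limma adjusted p = 0.0107) was made between means of 4.88 in Ednrb null and 5.99 in wild type, both under background, so no fold is given, and it was lost in the fit that adds the Actb ratio (adjusted p = 0.0588, the highest of its 18 alternatives). Insm1, a zinc finger factor of endocrine cells and of neuronal precursors, had 4.76, 5.14 and 5.12 in Ednrb null hindgut, 5.58, 5.79 and 5.36 in Ednrb NCC null and 6.58, 6.84 and 7.62 in wild type. It fell in both mutants (limma adjusted p = 0.000435 for Ednrb null and 0.00671 for Ednrb NCC null). Both mutant means lay under background, so the bound is at least 1.95-fold lower than wild type for each. Its other probe set was under background on average. That probe set was also called lower in both mutants (limma adjusted p = 0.00825 for Ednrb null and 0.0387 for Ednrb NCC null). Foxa1, a factor of gut endoderm, was lower in Ednrb null than in Ednrb NCC null (difference -0.68, limma adjusted p = 0.0292), a call kept in 12 of 19 alternatives and lost in the Actb fit (difference -0.52, adjusted p = 0.498). The motor neuron and pancreas factor Mnx1 fell in Ednrb null against wild type (limma adjusted p = 0.0176) at means under background in both groups, a call kept in 13 of 18 alternatives and lost in the Actb fit (adjusted p = 0.577).

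**Figure D3:**
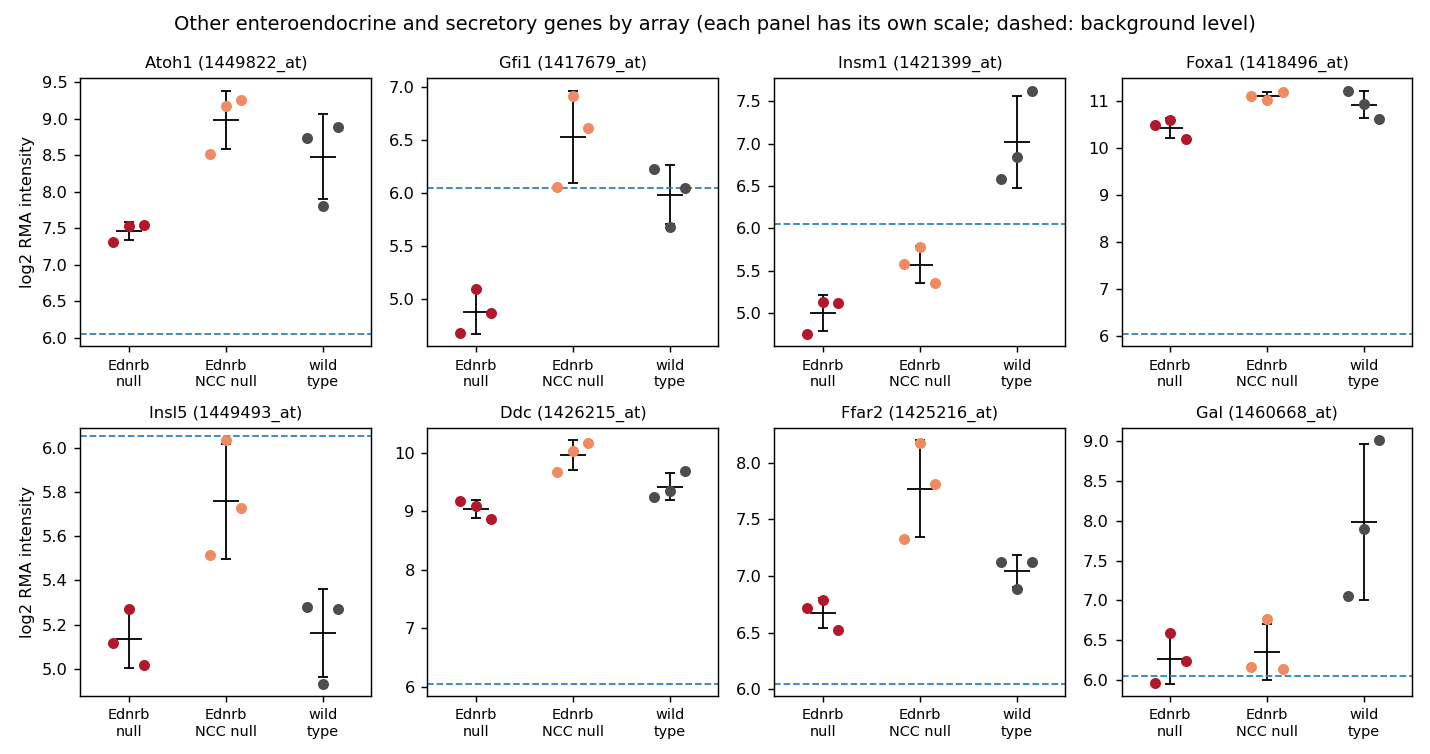
Log2 RMA intensity by array of 8 genes from the transcription factor, hormone and nutrient sensing lists, with group means and SD (black) and the background level of 6.05 (dashed); each panel has its own scale. Every Ednrb null array is under every other array for Atoh1, Gfi1, Insm1, Ddc and Ffar2, and narrowly for Foxa1. For Insm1 and Gal all arrays of both mutants are under wild type.

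Of 19 other gut hormone and serotonin genes, 2 fell in Ednrb null relative to wild type, where 2.29% of all genes fell. In Ednrb NCC null 1 fell and 2 rose relative to wild type, where 0.984% of all genes fell and 2.92% rose. Between the mutants 2 were lower in Ednrb null, where 3.73% of all genes were lower. Insl5, the L cell hormone typical of the colon, had 5.12, 5.27 and 5.02 in Ednrb null hindgut, 5.52, 6.03 and 5.73 in Ednrb NCC null and 5.28, 4.93 and 5.27 in wild type. It rose in Ednrb NCC null against wild type (difference 0.60, limma adjusted p = 0.0466) and was lower in Ednrb null than in Ednrb NCC null (difference -0.62, limma adjusted p = 0.0339). All 9 arrays were under background, and the calls were kept in 8 and 11 of 18 alternatives (adjusted p up to 0.148 and 0.150). Ddc, the decarboxylase that completes serotonin synthesis and is also an epithelial and neuronal enzyme, was lower in Ednrb null than in Ednrb NCC null (9.04 ± 0.16 against 9.96 ± 0.26, SD, n = 3 each, limma adjusted p = 0.00744). Tph1, which starts serotonin synthesis in enteroendocrine cells, lay at 4.80 to 5.76 in the 9 arrays, under background. The neuropeptide Gal fell against wild type in Ednrb null (difference -1.72, limma adjusted p = 0.0284), a call kept in 13 of 19 alternatives (adjusted p up to 0.111), and in Ednrb NCC null (difference -1.63, limma adjusted p = 0.0456), a call kept in 6 of 19 (adjusted p up to 0.204). The call of Vip in Ednrb null (limma adjusted p = 0.0273, kept in 12 of 18 alternatives, adjusted p up to 0.105) was made between means of 4.79 in Ednrb null and 5.87 in wild type, both under background. The opioid-like peptide gene Pnoc rose in Ednrb NCC null, by at least 1.56-fold since wild type lay under background (limma adjusted p = 0.00237).

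Dense-core granule and prohormone processing genes gave 0 calls among 19 measured in each of the 3 limma comparisons, with 1, 2 and 1 at an unadjusted p under 0.05. Of all genes 4.79%, 3.90% and 5.29% were called in these comparisons. Of all probe sets 17.3%, 17.0% and 17.3% had an unadjusted p under 0.05. At such shares 0 calls in a list of this length say little, here and for the receptors below. Among them the convertase Pcsk1 lay at 4.91 to 5.67, the granin Scg2 at 4.44 to 4.82 and the carboxypeptidase Cpe at 10.67 to 11.05. The receptors of the member hormones gave 0 calls among 15, with 0, 1 and 1 at an unadjusted p under 0.05, and 9 of the 15 averaged under background. The secretin receptor Sctr lay at 6.18 to 6.38 and the GLP-1 receptor Glp1r at 4.66 to 5.19. Of 10 nutrient sensing and surface genes, the glucose transporter Slc5a1 rose in Ednrb NCC null against wild type (difference 1.10, limma adjusted p = 0.000936), where 2.92% of all genes rose. Between the mutants 3 of the 10 were lower in Ednrb null, where 3.73% of all genes were lower. The largest of these 3 was in Ffar2, a receptor of short-chain fatty acids on L cells and on leukocytes, at 6.67 ± 0.13 against 7.77 ± 0.43 (SD, n = 3 each, limma adjusted p = 0.00685), and its other probe set gave -0.83. The calls of Slc5a1 and Cldn4 between the mutants (differences -0.76 and -0.46) were lost in the Actb fit (adjusted p = 0.0733 and 0.295). The differences were larger there, at -0.97 and -0.54.

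Markers of the tissue compartments differed between the groups. The mean of 23 gut epithelium genes was 9.23 to 9.60 in Ednrb null hindgut, 9.93 to 10.25 in Ednrb NCC null and 9.60 to 9.75 in wild type. Between the mutants 12 of the 23 were lower in Ednrb null and 0 higher (list median -0.48), where 3.73% of all genes were lower. Against wild type 2 of the 23, Cdx1 and Foxa3, were lower in Ednrb null (list median -0.14), where 2.29% of all genes were lower. In Ednrb NCC null 4 were higher than in wild type and 0 lower (list median 0.45), where 2.92% of all genes were higher. They were Vil1, Krt8, Lgals4 and Spink1, with calls kept in 13, 11, 13 and 7 of 19 alternatives. Tff3, a goblet cell peptide, had the largest of the 12 differences between the mutants, at -3.28 (limma adjusted p = 0.00596). Spink1 differed by -1.95 between the mutants (limma adjusted p = 0.00605). In the fit that adds the Actb ratio 2 of these 12 calls were kept (Cdx1 and Foxa3) and 10 lost. All 12 differences were larger in that fit (Tff3 at -3.61). Since the Ednrb null arrays stood apart in the ratio, that fit cannot tell the ratio from the group. The mean of 23 enteric neuron genes was 6.78 to 7.18 in Ednrb null hindgut, 6.75 to 6.98 in Ednrb NCC null and 7.28 to 7.69 in wild type. By this mean both mutants lay under wild type. Of the 23, 3 fell and 0 rose in Ednrb null against wild type (list median -0.23), where 2.29% of all genes fell. In Ednrb NCC null 4 fell and 0 rose (list median -0.30), where 0.984% of all genes fell. Ret, Elavl4 and L1cam were called in both, and Gap43 in Ednrb NCC null. The largest of these falls was that of Ret, at -3.23 and -3.31 (limma adjusted p = 0.000371 and 0.000737). The L1cam call in Ednrb null was lost in the Actb fit (adjusted p = 0.121). The Ednrb NCC null means of Neurog3 (AK008017), Chga and Chgb were 6.95, 7.0 and 6.54, against 6.58, 6.80 and 6.42 in wild type. None of these differences was called (limma adjusted p = 0.589, 0.452 and 0.852). Which cells carried the RNA of these members was not tested. Whether the mutants differ in Neurog3 or Chga beyond their epithelial level and their Actb ratio was not tested. In the fits that add the ratio both calls between the mutants were lost, while the differences were larger, at -1.96 for Neurog3 (adjusted p = 0.110) and -0.70 for Chga (adjusted p = 0.172).

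Of the other cell types, the mean of 10 sympathoadrenal genes was 7.02 to 7.31 in Ednrb null hindgut, 7.08 to 7.19 in Ednrb NCC null and 7.10 to 7.40 in wild type. Against wild type, 1 of these 10 was called higher and 1 lower in Ednrb null, beside 2.51% and 2.29% of all genes. For Ednrb NCC null the list had 1 lower call and 0 higher, beside 0.984% and 2.92%. Between the mutants it had 0 calls, beside 5.29%. Hand1 rose in Ednrb null against wild type (difference 0.93, limma adjusted p = 0.00301), a call lost in the Actb fit (difference 0.70, adjusted p = 0.219). Cartpt fell in Ednrb null by at least 1.78-fold (limma adjusted p = 0.0372, kept in 10 of 19 alternatives, adjusted p up to 0.138) and in Ednrb NCC null by at least 1.81-fold (limma adjusted p = 0.0437, kept in 8 of 19, adjusted p up to 0.206), with both mutant means under background. The mean of 10 pancreas genes was 5.33 to 5.49 in Ednrb null hindgut, 5.45 to 5.51 in Ednrb NCC null and 5.36 to 5.44 in wild type. This list gave 0 calls in the 3 limma comparisons, where 4.79%, 3.90% and 5.29% of all genes were called. At an unadjusted p under 0.05 it gave 2, 2 and 1, where 17.3%, 17.0% and 17.3% of all probe sets passed. Its defining factor Ptf1a lay at 4.48 to 4.78, while the insulin gene Ins2 lay above background at 7.16 to 7.45. Of the 10 sympathoadrenal markers 2 averaged under background over the 9 arrays, among them Th at 5.41 to 5.94. Dbh lay above it at 7.86 to 8.50. Which cells carried the Hand1 RNA was not tested.

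**Figure D4:**
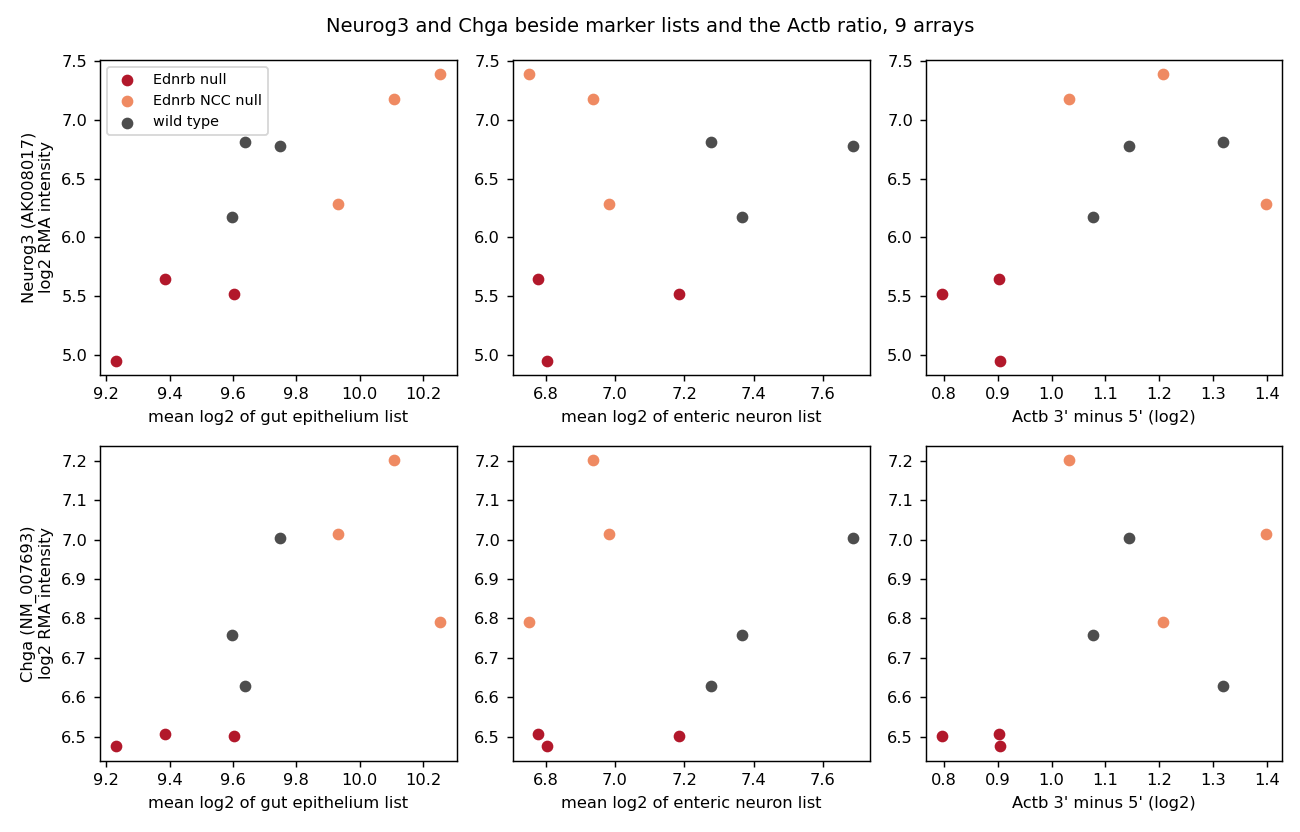
Log2 RMA intensity of Neurog3 (AK008017, top) and Chga (bottom) in each of the 9 arrays against the mean log2 level of the gut epithelium list, that of the enteric neuron list and the log2 3′ to 5′ ratio of the Actb control (left to right). The 3 Ednrb null arrays are the lowest in both genes and in the ratio (0.80 to 0.90). In the epithelial mean they (9.23 to 9.60) meet wild type (9.60 to 9.75), with Ednrb null 37 just above wild type 1C. The Ednrb NCC null arrays overlap wild type in both genes. They lie above wild type in the epithelial mean (9.93 to 10.25) and under it in the neuronal mean (6.75 to 6.98).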

How the data were processed

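The deposited values are intensities, 1 per probe set and array of the Affymetrix MOE430 version 2 platform, made by the authors with RMA per the submitters' processing notes; its version, the program and the probe set definition were not stated in the sources used here. RMA corrects background, aligns arrays and combines probes, and it shrinks dim differences. The linear values (5.69 to 61637, array medians 112 to 116) were converted to log2 with no pseudocount. Of 45101 probe sets, 64 controls were left out. The platform annotation names 1 gene for 34945 probe sets, several for 932 and none for 9160. Group means of the 9 arrays were modelled together in limma 3.58.1 (lmFit, eBayes without trend) in R 4.3.3. Tests were 2-sided, adjusted by Benjamini-Hochberg over 45037 probe sets, and called under 0.05. Lists of other genes used the brightest probe set of each of 18193 genes. The model was tested on simulated data. Precision is limited by the number of arrays.

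Members, lists and tests were chosen with earlier results of these data known. The rule names every member probe set, up to 4 called genes per list and comparison with the smallest p, and the 5 most similar genes of the 3 brightest members. Other genes with levels in the text are defining members of their lists. The 2 mutants share the same 3 wild type arrays.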

Additional observations from a re-analysis of the deposited data

How the results depend on the processing

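No paired analysis was possible because the groups share no replicate numbers. With the Actb ratio as a covariate, 0 members were called in Ednrb null relative to wild type and 0 between the mutants; all called probe sets numbered 539 and 283, against 2265 and 1984. In a fit that adds the Y-linked level, 1 member was called between the mutants (Neurog3), and all calls numbered 831 in Ednrb NCC null relative to wild type (1611 without it) and 981 between the mutants. With an offset of 32 on the intensity, 0 and 1 members were called in those comparisons of Ednrb null, where Neurog3 gave -0.80 against wild type (adjusted p = 0.0929, 0.00942 to 0.179 over its alternatives). With a minimum log2 change of 1, 1 member was called between the mutants, and all calls numbered 515 (Ednrb null relative to wild type), 319 (Ednrb NCC null relative to wild type) and 390 (Ednrb null relative to Ednrb NCC null). With the brightest probe set of each gene they numbered 917, 902 and 1187, since fewer probe sets were tested. At an adjusted p under 0.10 there were 2871 in Ednrb NCC null relative to wild type and 3164 between the mutants. Fitting only the 2 groups gave 1042 in Ednrb NCC null relative to wild type, and array weights gave 3709 between the mutants. With any 1 array left out, all calls ranged from 1330 to 2358, 716 to 1971 and 866 to 2061, and member calls from 0 to 1, 0 to 0 and 0 to 2. Under the median of the sensory receptor probe sets as the background level, 2 members rather than 5 were near background in all groups. For the other shifts the cause was not tested. Of 603 member values under 19 fits, 19 lost a call, 1 gained one and 0 reversed a called sign; 29 uncalled differences changed sign. Dim signal limits the Gcg, Cck and Neurod1 readings.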
